A study of Saccharomyces cerevisiae with 8 samples.

Results

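The features described here are the reading frames of the mitochondrial genome on a yeast array. They were taken as every feature of the 4 scanner tables whose gene identifier begins with Q0, ignoring case, which gave 23 of 6336 gene features. Each was printed as 2 neighbouring spots. By role they are 7 subunits of the respiratory chain and of ATP synthase (COX1, COX2, COX3, COB, ATP6, ATP8 and OLI1), the ribosomal protein VAR1, 10 reading frames that lie in introns, and 5 frames that the tables name only as hypothetical proteins (Q0032, Q0143, Q0182, Q0255 and Q0297).

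Saccharomyces cerevisiae BY4741 of mating type a was grown in YPD, a rich glucose medium, and given 10 µM of IP-1 (Iztli peptide 1, a designed antimicrobial peptide that contains the alpha pheromone sequence) or left untreated. RNA was taken after 3.5, 7, 15 or 30 min. Each exposure had 1 IP-1 culture labelled with Cy5 and 1 untreated culture labelled with Cy3, hybridised together on 1 array, so that the 4 arrays hold 4 IP-1 and 4 untreated cultures and no dye swap. A constant dye effect of a probe therefore cannot be told apart from the treatment, and n is 4 arrays throughout, which differ in exposure, culture and hybridisation at once.

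The mitochondrial genome of budding yeast encodes a few membrane subunits of the respiratory complexes, VAR1 and the RNAs of its own ribosome, and is read by a dedicated single-subunit RNA polymerase made in the nucleus. COX1 and COB are split by introns, many of which contain a reading frame in phase with the exon before it. The proteins made from such frames are maturases, which help to splice their own intron, or DNA endonucleases and reverse transcriptases, which spread it. Yeast mitochondrial messenger RNAs carry no poly(A) tail, and which primer copied the RNA into labelled cDNA is not stated in the labels. In the R64 gene table AI1, AI2, AI3, AI4 and AI5_ALPHA are annotated from the same start as COX1 (5 frames), and BI2, BI3 and BI4 from that of COB (3 frames), so a probe of an intron frame may also hold exon sequence. The positions of the probes within the genes are not known here, and their sequences were not used.

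The median ratio of all 6152 features tested was close to 0 on each array (0.00 to 0.01), and its SD was 0.25, 0.22, 0.35 and 0.18 in the order of the exposures. The ratios of the 2 spots correlated across features at 0.778, 0.761, 0.908 and 0.559 (genes on an array are not independent), so the 30 min array was the least repeatable. All 7 a-specific genes on the list of markers were above the range of the empty spots in both channels on 4 of 4 arrays. But so were STE3, MFALPHA1 and MFALPHA2, which mark the opposite mating type, and HIS3, LEU2 and MET17, which carry deletions in BY4741, in HIS3 of only part of the gene. SAG1, also a marker of the opposite mating type, was so on 2 arrays and URA3, also deleted, on 3. LEU2 stood at 246 to 611 times its local background in IP-1 and 240 to 451 times in untreated cells. Such signal at the spots of LEU2, MET17 and the opposite mating type goes against the labelled strain, and part of a signal at any spot may come from other sequences, which was not tested.

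Most mitochondrial features were dim. On each array and channel the 95th percentile of the 320 empty spots, taken as raw intensity over local background, served as a limit: it was 1.52, 1.56, 1.49 and 1.30 for IP-1 and 1.63, 1.39, 1.61 and 1.49 for untreated cells in the order of the exposures. Both spots exceeded it for 14, 10, 18 and 10 of the 23 features in IP-1 and for 16, 15, 20 and 18 in untreated cells. In both channels of all 4 arrays 8 of 23 did so (COX2, COB, ATP8, OLI1, AI5_ALPHA, BI2, Q0182 and Q0297), against 4615 of all 6336 features. AI5_ALPHA, the frame of a COX1 intron that encodes a DNA endonuclease, stood at 20.4 to 78.05 times background in IP-1 and 21.2 to 80.02 times in untreated cells. Q0182 was at 9.42 to 22.7 times in IP-1 and 13.3 to 34.2 times in untreated cells, and OLI1 at 2.47 to 21.7 and 1.87 to 17.5 times. At the other end, the IP-1 signal of AI3, BI3, Q0032, Q0143 and Q0255 lay within the range of the empty spots on all 4 arrays, and Q0032 and Q0255 did so in untreated cells too. All 23 passed the more lenient filter used for testing, which asks for both spots over 2 SDs of the local background in at least 1 channel on every array. That filter says little about signal: among empty spots, 68.1% to 88.75% were over it, depending on array and channel. With both channels required 18 of 23 passed. AI3, BI3, Q0032, Q0143 and Q0255 missed it in IP-1 on at least 1 array and passed through the untreated channel there.

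**Figure D1:**
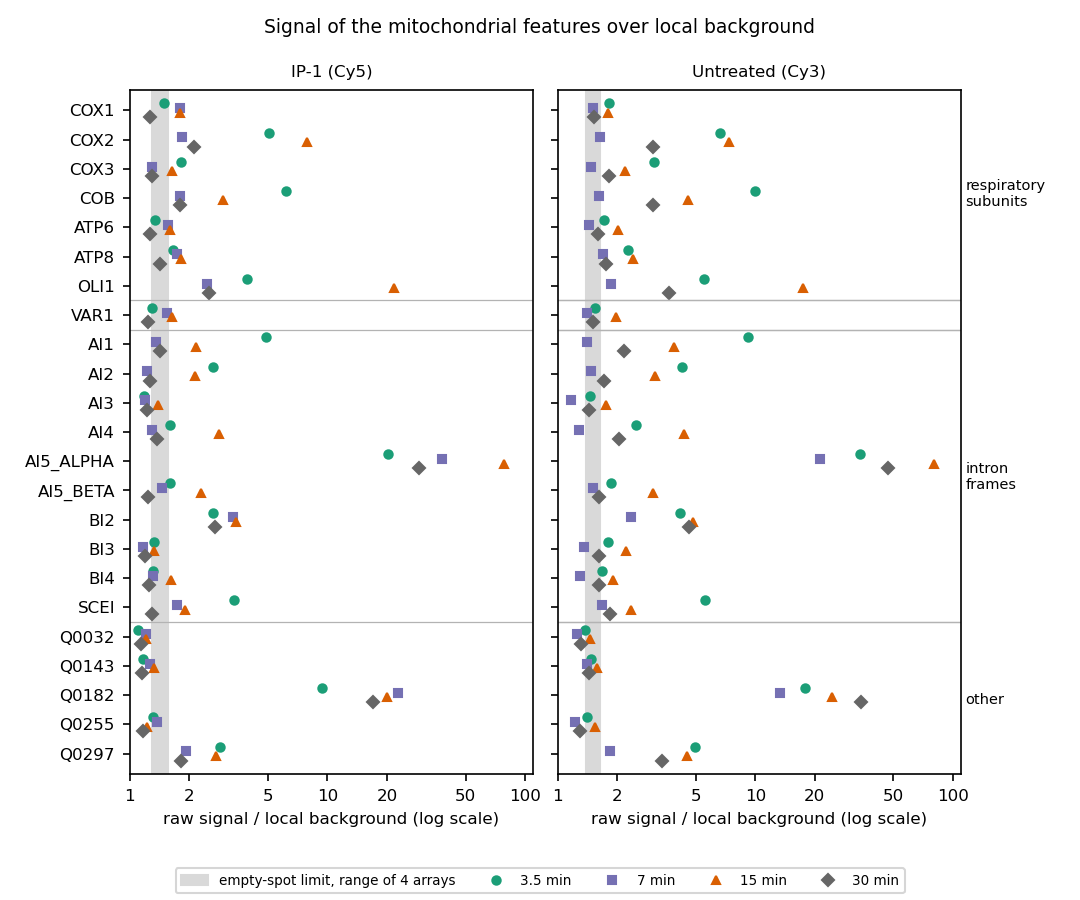
Raw intensity over local background (log scale) of each mitochondrial feature, mean of the 2 spots, with IP-1 on the left and untreated cells on the right. Each symbol is an exposure, and the grey band spans the empty-spot limits of the 4 arrays. AI5_ALPHA and Q0182 stand far above the band at every exposure, while AI3, BI3, Q0032, Q0143 and Q0255 lie in or below it in IP-1.

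The mitochondrial reading frames called lower in IP-1 were COX3, the COX1 intron frame AI2, the COB intron frame BI3, and the frames Q0182 and Q0297. Their mean log2 ratios of IP-1 over untreated ran from −0.46 to −0.31. BI3 passed the filter at 7 min through the untreated channel only, and its IP-1 signal lay in the empty-spot range on all 4 arrays. The test was limma on the mean of the 4 arrays, with Benjamini-Hochberg adjustment over all 6152 features and an adjusted p under 0.05. It called 5 of 23 lower and 0 higher, against 6.83% lower and 2.08% higher of all features (8.91% in either direction). The mean was below 0 for 19 of 23 features, as for 47.5% of all features, and 15 of 23 were below 0 on all 4 arrays, as were 19.4% of all features. These counts include AI3, BI3, Q0032 and Q0143, which passed the filter through the untreated channel only on at least 1 array. Where both channels had to pass, 4 of 18 were called lower, beside 391 of 5816 features, and 15 of 18 had a mean below 0. The median of the 23 means was −0.23, beside 0.01 for all features tested. Fewer mitochondrial genomes or cells that hold them and less RNA from each cannot be told apart in such pooled cultures. Without the 3.5 min or the 7 min array 0 of 23 passed, and 5 and 2 of all features were called lower, against 420 with all arrays. At an unadjusted p under 0.05, 11 of 23 were lower in each of these settings, beside 860 and 726 of 6152 features. Without the 15 min array 6 of 23 were called lower, beside 370 of 6152 features, and the median of the means was −0.13. Without the 30 min array 4 of 23 were called lower, beside 421 of 6152. With no background correction only Q0182 passed, beside 213 of 6152 features called lower. With the deposited ratios, which are not centred, AI1 and Q0297 passed, beside 52 of 6152 features called lower.

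**Figure D2:**
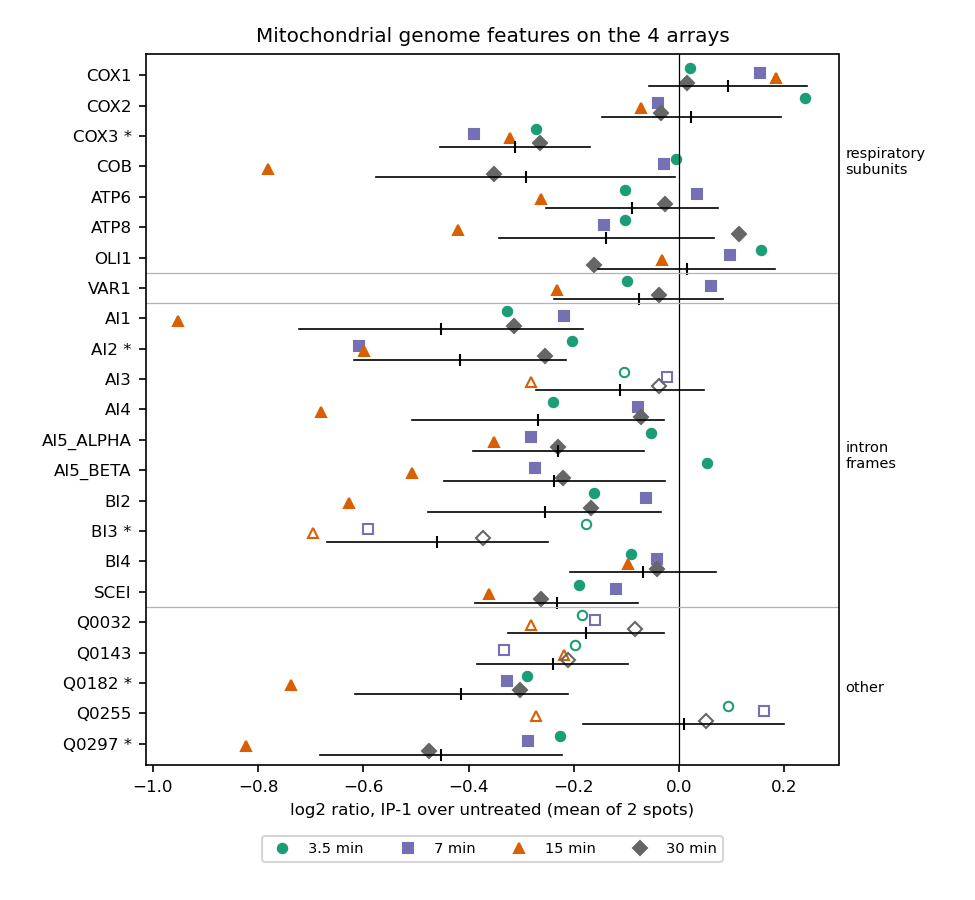
Log2 ratio of IP-1 over untreated for each feature (mean of 2 spots), 1 symbol per exposure, with the mean and its 95% confidence interval from limma as a black tick and line. A star marks an adjusted p under 0.05, and open symbols mark features whose IP-1 signal lay in the empty-spot range on all 4 arrays. The intron frames lie mostly left of 0, while COX1, COX2 and OLI1 have means near 0.

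Of the 3 mitochondrial subunits of cytochrome c oxidase, the terminal enzyme of the chain, COX3 alone passed the test. Its normalised log2 level was 7.28, 6.26, 6.68 and 6.71 in IP-1 at 3.5, 7, 15 and 30 min, against 7.55, 6.65, 7.00 and 6.97 in untreated cells. The level moved more between arrays than between the channels, so the groups overlap over all arrays, but IP-1 was the lower channel on each of them and in 8 of 8 spots. The mean log2 ratio was −0.31 ± 0.06 (SD, n = 4 arrays), 1.24-fold lower, with a limma adjusted p of 0.024 and a 95% interval of −0.45 to −0.17. COX3 was close to background: its IP-1 signal exceeded the empty-spot limit on 2 of 4 arrays, and its untreated signal on 4 of 4. The size of its ratio depended on the background step, with −0.50 at an offset of 10 and −0.20 without background correction.

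COX1, which encodes the catalytic subunit and hosts the AI introns, had ratios of 0.02, 0.15, 0.18 and 0.01 and a mean of 0.09 ± 0.09 (limma adjusted p = 0.38). Its 95% interval ran from −0.06 to 0.24. It was itself close to the empty spots, at 1.27 to 1.80 times background in IP-1 and 1.51 to 1.82 times in untreated cells, and its spots at 7 min differed by 0.54. COX2, the subunit that takes electrons from cytochrome c, was at 0.24 at 3.5 min and at −0.04, −0.07 and −0.03 at 7, 15 and 30 min. Its mean was 0.02 ± 0.15 (adjusted p = 0.87), with an interval of −0.15 to 0.19.

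COB, the cytochrome b of the bc1 complex and the host of the BI introns, was one of the 8 features above the empty-spot limit everywhere. Its normalised log2 level was 9.49, 6.90, 7.42 and 7.76 in IP-1, against 9.50, 6.93, 8.20 and 8.11 in untreated cells. The channels were alike at 3.5 and 7 min (ratios of −0.01 and −0.03), and IP-1 was lower at 15 and 30 min (−0.78 and −0.35). Both spots gave this order, with −0.82 and −0.74 at 15 min and −0.43 and −0.27 at 30 min. The mean was −0.29 ± 0.36 and did not pass the test (limma adjusted p = 0.17), and its slope on log2 of minutes, −0.18 ± 0.10 (SE), had an unadjusted p of 0.11 and an adjusted p of 1.00.

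The 3 mitochondrial subunits of ATP synthase did not pass the test either. ATP6, part of the proton channel, averaged −0.09 ± 0.13 (adjusted p = 0.44), and ATP8, its small partner, −0.14 ± 0.22 (adjusted p = 0.34). ATP8 had −0.42 at 15 min and 0.11 at 30 min, where its spots were at 0.36 and −0.14 and thus opposed each other. OLI1, which encodes the subunit of the rotating membrane ring, had 0.16, 0.10, −0.03 and −0.16 in the order of exposure. Its mean was 0.01 ± 0.14 (adjusted p = 0.92), and its slope of −0.10 ± 0.06 per log2 min missed the threshold as well (unadjusted p = 0.13, adjusted p = 1.00). VAR1, a protein of the small subunit of the mitochondrial ribosome, averaged −0.08 ± 0.12 (adjusted p = 0.50), with an IP-1 signal over the empty-spot limit on 1 of 4 arrays.

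All 10 intron frames had a mean below 0, from −0.46 for BI3 to −0.07 for BI4, as did 47.5% of all features. Of these frames 9 of 10 were below 0 on all 4 arrays, as were 19.4% of all features. AI5_BETA was the exception with 0.05 at 3.5 min. The IP-1 signal of AI3 and BI3 lay in the empty-spot range, and without background correction BI4 had a mean of 0.03. Of the 10, AI2 and BI3 passed the test. Among the frames of COX1, AI1 and AI2 belong to group II introns and encode maturases that are also reverse transcriptases. AI2 had log2 levels of 8.01, 6.15, 7.03 and 6.67 in IP-1, against 8.22, 6.76, 7.62 and 6.92 in untreated cells. IP-1 was lower on each array and in 8 of 8 spots, by 0.20 and 0.26 at 3.5 and 30 min and by 0.61 and 0.60 at 7 and 15 min. The mean log2 ratio was −0.42 ± 0.22, 1.33-fold lower (limma adjusted p = 0.028, or 0.061 with the second spot alone), and its IP-1 signal exceeded the empty-spot limit on 2 of 4 arrays. The size of the AI2 ratio depended on the background step, with −0.65 at an offset of 10 and −0.33 without background correction.

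AI1 missed the threshold narrowly. Its log2 levels were 9.15, 6.35, 6.99 and 7.09 in IP-1, against 9.47, 6.57, 7.94 and 7.40 in untreated cells, with IP-1 lower in 8 of 8 spots. The ratio at 15 min, −0.95, stood apart from −0.33, −0.22 and −0.31 at the other exposures. In raw intensity the spots at 15 min read 166 and 130 in IP-1 and 311 and 264 in untreated cells. The mean was −0.45 ± 0.34 with a limma adjusted p of 0.050 that lay just above the threshold (0.0504). Without the 15 min array the mean was −0.29 (adjusted p = 0.041), and without the 3.5, 7 or 30 min array the adjusted p was 0.15, 0.13 and 0.059.

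The other frames of COX1 did not pass. AI5_ALPHA, far above background everywhere, had −0.05, −0.28, −0.35 and −0.23 and a mean of −0.23 ± 0.13 (adjusted p = 0.081). Under other processing its mean ran from −0.30 to −0.08, the latter with median centring (limma adjusted p = 0.63). Its spots differed in brightness, with raw intensities at 3.5 min of 3665 and 1386 in IP-1 and 4882 and 1708 in untreated cells, yet their ratios at that exposure were −0.13 and 0.02. AI4, which encodes an endonuclease that can also act as a maturase, averaged −0.27 ± 0.29 (adjusted p = 0.14), with −0.68 at 15 min and −0.07 at 30 min. AI5_BETA averaged −0.24 ± 0.23 (adjusted p = 0.14). AI3, an endonuclease frame, averaged −0.11 ± 0.12 (adjusted p = 0.33), and its IP-1 signal was not above the empty spots. No fold or bound is given for AI3. Its mean untreated log2 level, 6.45, lay below the lowest IP-1 level above the empty spots, 6.63 on average.

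The frames of COB encode maturases. BI3 had log2 levels of 6.59, 6.01, 6.34 and 6.45 in IP-1, against 6.76, 6.60, 7.03 and 6.82 in untreated cells. IP-1 was lower on each array and in 7 of 8 spots, most at 7 and 15 min (−0.59 and −0.70). The mean log2 ratio was −0.46 ± 0.23 (limma adjusted p = 0.024). Since its IP-1 signal lay in the empty-spot range on all arrays, only a bound is given for BI3, which came to 1.13-fold lower. The bound is not firm. Its untreated signal exceeded the limit on 2 of 4 arrays, and the bound also uses the arrays where it did not. BI3 entered the test through the untreated channel, since 1 of its 2 IP-1 spots at 7 min was within 2 SDs of the background, and it is not among the 4 of 18 called where both channels must pass. Its adjusted p was 0.073 with median centring and 0.054 with the second spot alone. The bound is the ratio of the untreated mean level to the mean of the lowest signal above the empty spots on each array, or of its own signal where that was higher. BI2, above the limit everywhere, averaged −0.25 ± 0.25 (adjusted p = 0.13), with −0.63 at 15 min against −0.16, −0.06 and −0.17 at the other exposures. BI4, needed to splice an intron of COX1 as well as its own, averaged −0.07 ± 0.03 (adjusted p = 0.49). SCEI, the endonuclease frame in the intron of the large ribosomal RNA gene, had −0.19, −0.12, −0.36 and −0.26 and a mean of −0.23 ± 0.10 (adjusted p = 0.068).

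Of the 5 frames named as hypothetical proteins, Q0182 and Q0297 fell, and both were above the empty-spot limit in both channels of all 4 arrays. Q0182 had log2 levels of 10.15, 10.65, 9.77 and 11.70 in IP-1, against 10.44, 10.98, 10.50 and 12.01 in untreated cells, lower in 8 of 8 spots. Its ratios were −0.29, −0.33, −0.74 and −0.30, with a mean of −0.41 ± 0.22, 1.33-fold lower (limma adjusted p = 0.028, or 0.12 with median centring). Q0297 had log2 levels of 8.25, 7.07, 7.36 and 7.80 in IP-1, against 8.48, 7.36, 8.19 and 8.28 in untreated cells, again lower in 8 of 8 spots. Its ratios were −0.23, −0.29, −0.82 and −0.48, with a mean of −0.45 ± 0.27, 1.37-fold lower (limma adjusted p = 0.031, or 0.058 without the 30 min array). For both, the 15 min array held the lowest ratio. Q0143 averaged −0.24 ± 0.06 (adjusted p = 0.051), Q0032 −0.18 ± 0.08 (0.12) and Q0255 0.01 ± 0.19 (0.96). The IP-1 signal of Q0143, Q0032 and Q0255 was not above the empty spots, and no fold or bound is given for them. Their mean untreated log2 levels, 6.52, 6.34 and 6.29, lay below the lowest IP-1 level above the empty spots, 6.63 on average. Of the 23 features, 4 were not found in the R64 table (Q0032, Q0143, Q0182 and Q0297), and no role is given for these frames.

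With both spots averaged, the median ratio of the intron frames lay below that of the respiratory subunits on every array. Most of these frames were dim. Only AI5_ALPHA and BI2 among the intron frames, and COX2, COB, ATP8 and OLI1 among the subunits, exceeded the empty-spot limit in both channels of all arrays. The median log2 ratio of the 10 intron frames was −0.17, −0.17, −0.55 and −0.22 in the order of exposure, and that of the 7 subunits −0.01, −0.03, −0.26 and −0.03. The subunits were thus higher than the intron frames by 0.16, 0.14, 0.29 and 0.19, with a mean of 0.20 ± 0.07 (SD of 4 arrays). The 5 frames named as hypothetical proteins had medians of −0.20, −0.29, −0.28 and −0.21, so low medians were not particular to intron frames. These medians were not tested, since the members were chosen with earlier results known, and whether their probes share sequence is not known here. The mean difference between subunits and intron frames was 0.12 with median centring and 0.11 with the deposited ratios. With the spots taken apart, the order of subunits and intron frames held in both spots at 3.5, 7 and 15 min. At 30 min it held in the second spot (−0.23 for intron frames and −0.14 for subunits) and turned in the first (−0.20 and −0.23). COX3 was lower than most intron frames, and BI4 and AI3 were close to the subunits, so the roles overlap.

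**Figure D3:**
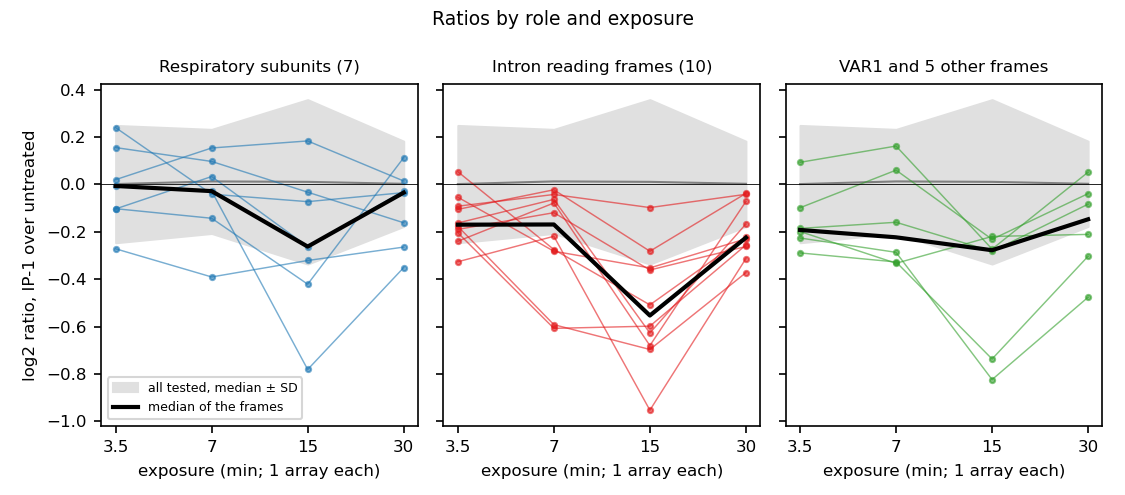
Log2 ratio of IP-1 over untreated by exposure for the 7 respiratory subunits, the 10 intron frames, and VAR1 with the 5 other frames. Thin lines are features, the thick line is their median, and the grey band is the median ± SD of all tested features on each array. The median of the intron frames lies below the band at 15 and 30 min (−0.55 and −0.22), while that of the subunits stays inside it (−0.26 and −0.03).

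Each intron frame was also set against its host gene on the same array, without a test. Each of AI1, AI2, AI3, AI4 and AI5_ALPHA had a lower ratio than COX1 on 4 of 4 arrays, and AI5_BETA on 3 of 4. The difference of log2 ratios from COX1 averaged −0.55 ± 0.39 for AI1, −0.51 ± 0.30 for AI2, −0.36 ± 0.34 for AI4, −0.33 ± 0.31 for AI5_BETA, −0.32 ± 0.21 for AI5_ALPHA and −0.20 ± 0.18 for AI3. These 6 differences share the ratio of COX1, which was close to the empty spots, and are no independent evidence of each other. The frames of COB lay on both sides of their host: BI2 and BI4 were below COB on 2 of 4 arrays each, with mean differences of 0.04 ± 0.16 and 0.22 ± 0.35, and BI3 on 3 of 4, with −0.17 ± 0.28. At 15 min, where COB was at −0.78, BI2, BI3 and BI4 all lay above it, by 0.15, 0.08 and 0.68.

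**Figure D4:**
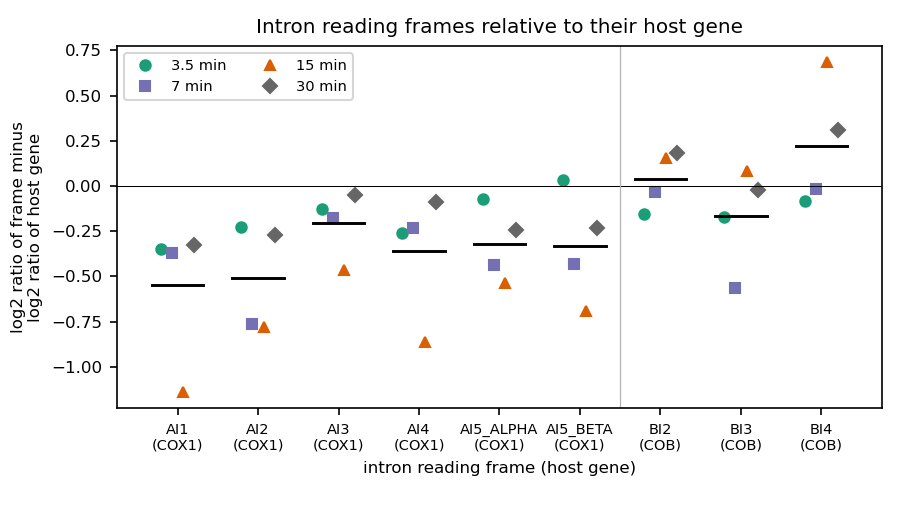
Log2 ratio of each intron frame minus that of its host gene on the same array, with a bar at the mean of the 4 arrays. The frames of COX1 lie below 0 except AI5_BETA at 3.5 min (0.03), and the frames of COB lie on both sides of 0.

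The lower ratios were deepest on the 15 min array. Ratios below 0 were found for 18, 18, 22 and 20 of 23 features at 3.5, 7, 15 and 30 min, against 49.7%, 47.4%, 48.6% and 49.2% of all features. A log2 ratio of −0.5 or lower was found for 0, 2, 9 and 0 of 23, against 2.47%, 2.96%, 7.83% and 0.731%. The 2 at 7 min were AI2 and BI3, and the 9 at 15 min were 6 intron frames, COB, Q0182 and Q0297. In none of the 23 did both spots reach a 2-fold difference at any exposure (0 lower and 0 higher). Over all features the shares past this limit were 0.0325%, 0.0325%, 0.878% and 0% lower and 0.309%, 0.0488%, 0.439% and 0.0163% higher. The 15 min array also had the widest spread of ratios over all features, and each exposure has 1 array, so exposure and array cannot be told apart. The slope on log2 of minutes passed in 0 of 23 and in 0% of all features by limma, and at an unadjusted p under 0.05 in 0 of 23 and 61 of 6152.

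Several frames differed far more between arrays than between the channels of an array. AI1 spanned 6.94-fold over the 4 arrays in IP-1 and 7.48-fold in untreated cells, COB 6.04-fold and 5.95-fold, and OLI1 6.49-fold and 7.10-fold. AI1, COB, COX2 and SCEI were highest at 3.5 min in both channels, and OLI1 at 15 min in both. The median range over arrays, on the log2 scale, was 1.02 in IP-1 and 0.90 in untreated cells for the mitochondrial features, against 0.68 and 0.57 for all features tested. The level of an array was set by scaling across arrays, and culture, exposure and hybridisation cannot be told apart in it.

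All 23 features were printed in row 1, columns 19 to 24, of their blocks, in block columns 3 and 4. Only COX3, Q0255 and Q0297 were in block column 3, and the rest were in block column 4. The other features at those places thus lay mostly in block column 3. They are not matched to the mitochondrial features in place, and an effect of place was not tested. Of the 25 other tested features at those places 1 was called lower and 3 higher, with median ratios of 0.19, 0.06, 0.16 and 0.06 on the 4 arrays, against −0.11, −0.12, −0.35 and −0.17 for the mitochondrial features. In row 1 of all blocks 24 of 344 other features were called lower and 7 higher, with medians of 0.03, 0.01, 0.02 and −0.01. With loess fitted per block in place of the whole array, a choice made after seeing the data, 7 of 23 were called lower, beside 415 of 6152 features.

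Nuclear genes of the same processes were read in the same fit, in which 6.83% of all features were called lower and 2.08% higher. Of 29 genes for transcription, processing and splicing of mitochondrial RNA 1 fell and 0 rose, with a median of −0.04: AEP1, which is needed to express OLI1, had −0.31, −0.29, −0.16 and −0.30 (mean −0.26 ± 0.07, limma adjusted p = 0.039). Of 11 genes that activate or otherwise regulate mitochondrial translation 2 fell and 0 rose, with a median of −0.04. CBS2, which acts on the COB messenger, was at −0.37 ± 0.14 (adjusted p = 0.023), and COX14, which regulates COX1 synthesis, at −0.27 ± 0.08 (adjusted p = 0.037). No gene passed among 16 for mitochondrial DNA maintenance (median 0.05), 8 nuclear subunits of cytochrome c oxidase (−0.06), 8 of the bc1 complex (−0.08) and 14 of ATP synthase (0.05), where 3, 2, 2 and 1 had an unadjusted p under 0.05. So did 8 of the 29, 5 of the 11 and 28.2% of all features. RPO41, the mitochondrial RNA polymerase, chosen here after its values were seen, had −0.46, −0.03, −0.79 and −0.08 (mean −0.34 ± 0.36, limma adjusted p = 0.12). It had the lowest mean of the 29. MRS1, also of the 29, went the other way on all 4 arrays with 0.25, 0.29, 0.10 and 0.51 (mean 0.29 ± 0.17, limma adjusted p = 0.057). The means farthest from 0 in these 4 lists were CCE1, a junction-cutting endonuclease, at 0.31 (adjusted p = 0.16) and the nuclease NUC1 at 0.22 (0.099), COX5A at −0.22 (0.090) and COX8 at 0.16 (0.16), RIP1, the iron-sulfur protein, at −0.22 (0.081) and QCR6 at 0.20 (0.13), and the catalytic subunits ATP2 at −0.26 (0.18) and ATP1 at 0.16 (0.14).

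**Figure D5:**
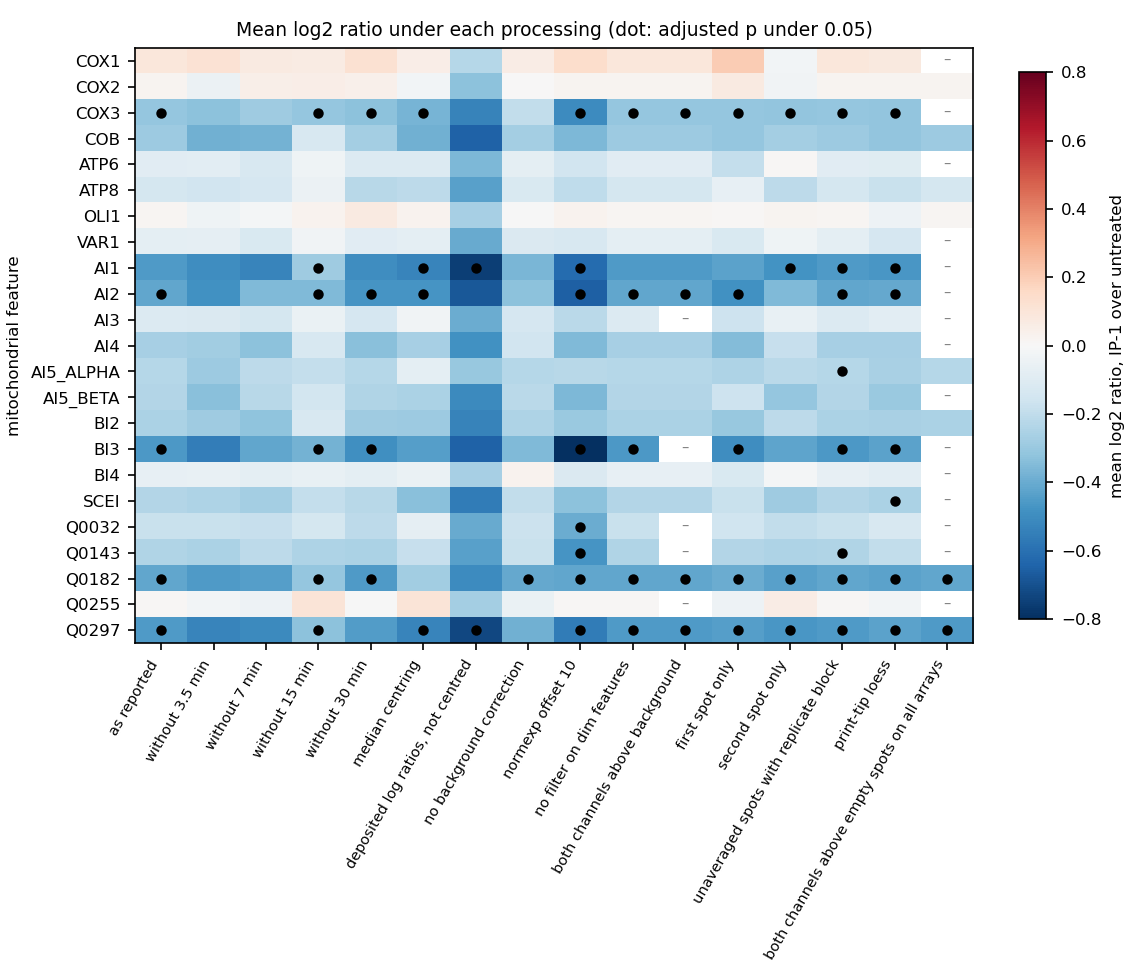
Mean log2 ratio of IP-1 over untreated for each mitochondrial feature (rows) under each processing (columns), with blue for lower in IP-1, red for higher and a dot for an adjusted p under 0.05. A dash marks a feature that did not pass the filter of that setting. Q0182 and Q0297 keep a dot under the filter on empty spots, and without the 3.5 min or the 7 min array no feature has one.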

How the data were processed

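The authors' deposited scanner tables give, per the file headers, raw and local background intensity of each spot, and the deposited series matrix gives log10 of raw Cy5 over raw Cy3, equal to the scanner values within 4.98e-07, so its direction and scale are known; it is not centred, with log10 column medians of −0.0440 and −0.0446, −0.216 and −0.222, −0.0127 and −0.0137, and −0.0302 and −0.0292 for the 2 spots at 3.5, 7, 15 and 30 min. Neither the scanner software nor a genome build for the probes is named in the labels or headers, and coordinates are left out. The 14 summary lines of each file and 28 other columns were left out. In the headers, the channels carry tags T1 to T4 that do not follow the order of exposure; exposures were taken from the labels. The deposited background values, in intensity units, entered normexp with an offset of 50 (limma 3.58.1, R 4.3.3), which draws dim ratios toward 0, followed by global loess (span 0.3, 4 iterations; weight 0 for empty spots and 32 Arabidopsis features) and averaging of the 2 spots, which are technical. The 8 samples in GEO are these 2 spots on 4 arrays. The filter kept 6152 of 6336 features. Mean and slope were tested with lmFit and eBayes. Levels across arrays come from Aquantile scaling after loess. The number of arrays limits the precision. All 23 features and the listed nuclear genes are named where called (otherwise the 2 largest means of a list). Members and lists were chosen with earlier results of these data known. The script was tested on simulated data, with 200 of 6152 features changed. The mean test recovered 0, 143 and 196 of them at log2 changes of 0.3, 0.5 and 1. Some changes of each size were missed, so a feature that did not pass may still have changed by 0.3, 0.5 or more. The simulated noise was independent and normal, unlike that of the arrays, and COX3 was called in the data at −0.31. The recovery rates therefore do not carry over directly to these data. Names were matched through locus tags to the R64 table (19 of 23 features). Figures were drawn with matplotlib 3.10.9 in Python 3.11.15. Alternatives were other centring, background, offset, filters, spots and arrays left out.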

Additional observations from a re-analysis of the deposited data

Results flagged for a closer look

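A gap test on the 4 arrays of each feature (Dixon's) singled out 1 array in 4 of 23 mitochondrial features (17.4%), against 361 of 6152 features tested (5.87%); chance alone marks about 1 in 20. COX2 stood apart at 3.5 min with a log2 ratio of 0.24, the only one of its 4 values above 0. AI1 stood apart at 15 min with −0.95, and Q0182 at the same exposure with −0.74. Q0143 stood apart at 7 min with −0.33, in a channel that was not above the empty spots. Each exposure has 1 array, so none of these values has a replicate.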

How the results depend on the processing

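The count of features called lower (5 of 23) ranged from 0 to 6 when 1 array was left out, and that over all features (420 of 6152) from 2 to 421. The count among the 23 was 4 with median centring (BI3 and Q0182 lost, AI1 gained), beside 226 of all features. It was 4 of 18 with both channels above background (BI3 not tested), beside 391 of 5816. It was 4 with the second spot (AI2 and BI3 lost, AI1 gained), beside 357 of all features. With the first spot or no filter it was 5, beside 348 of 6152 and 418 of 6336. It was 2 with the deposited ratios, beside 52 of all features. In these ratios the median of all features was −0.23 and that of the mitochondrial features −0.44. The count was 1 (Q0182) with no background correction, beside 213 of all features. It was 8 with an offset of 10, beside 485 of all features, and 8 with unaveraged spots and the replicate block, beside 570. Of 2 settings chosen after seeing the data, loess per block gave 7, beside 415 of 6152, and a filter on empty spots gave 2 of 8, beside 309 of 4598. No feature was called higher and none passed the slope test in any setting. Subunits minus intron frames ranged from 0.16 to 0.21 without 1 array, and was 0.12 with median centring and 0.11 with the deposited ratios. Both spots at 2-fold lower were found for 18 features at 7 min in the deposited ratios, for 1 at 7 min and 2 at 15 min with an offset of 10, and for 1 at 15 min with the second spot alone. Signs turned near 0. COX2 was −0.049 without the 3.5 min array, −0.023 with median centring, −0.33 in the deposited ratios and −0.027 with the second spot. OLI1 was −0.032 and −0.013 without the 3.5 or 7 min array, −0.27 in the deposited ratios, −0.0045 with no background correction and −0.040 with loess per block. Q0255 was −0.020, −0.042 and −0.0057 without the 3.5, 7 or 30 min array, −0.27 deposited, −0.054 with no background correction, −0.043 with the first spot and −0.023 with loess per block. COX1 was −0.23 deposited and −0.019 with the second spot, ATP6 0.0099 with the second spot, and BI4 0.031 with no background correction. The cause was not tested. Signal limits these results: 8 of 23 features were above the empty spots in both channels of all arrays.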
